A study of Homo sapiens with 2 samples.

Results

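The 9 genes described here encode proteins that build, coat, empty or supply lipid droplets: PLIN2, PLIN3, HILPDA, G0S2, FABP5, LPIN1, DGAT1, DGAT2 and PNPLA2. They were chosen by name, and all 9 symbols were found among the 36601 features of the count matrices. Their transcripts were followed in 1 spatial transcriptome section each of 2 untreated tumors, Tumor-897 and Tumor-899. Both grew from MDA-MB-231, a human line of triple-negative breast cancer, with a fate-mapping system for hypoxia built in, in which low oxygen switches a cell's fluorescence for good. Tumors were frozen 18 days after implantation and cut at 10 µm. Both tumors form a single group (n = 2), and the comparisons are between zones within each section. In each comparison the high-score zone is set against the low-score zone, or the inner zone against the outer zone. The labels name neither the host nor separate animals, so p-values cannot be taken to measure the spread between animals. They weigh a difference between zones against how far it varied between these sections, together with a spread shared over genes. The features are human genes only, so reads from host cells that align to them cannot be told apart.

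Lipid droplets are stores of triglyceride and steryl esters wrapped in a phospholipid layer and coated with proteins. The coat proteins of the perilipin family include PLIN2, which is stable mainly on droplets, and PLIN3, which moves between the cytosol and young droplets. LPIN1 is a phosphatidate phosphatase that makes diacylglycerol, and DGAT1 and DGAT2 add the last fatty acid to make triglyceride. PNPLA2, also called ATGL, is the lipase that starts triglyceride breakdown, and HILPDA and G0S2 are small proteins that inhibit it. FABP5 carries fatty acids in the cytosol. In many cell types low oxygen raises HILPDA and PLIN2 through hypoxia-inducible factors, and droplets accumulate.

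On GRCh38.p14, by RefSeq, the coat genes lie at chr9:19108388-19127492 (PLIN2, ENSG00000147872 in the files) and chr19:4838341-4867667 (PLIN3, ENSG00000105355). The lipase gene PNPLA2 (ENSG00000177666) lies at chr11:818914-825573, and its inhibitors at chr7:128455878-128458418 (HILPDA, ENSG00000135245) and chr1:209675412-209676390 (G0S2, ENSG00000123689). The synthesis genes LPIN1 (ENSG00000134324) and DGAT2 (ENSG00000062282) lie at chr2:11677544-11827409 and chr11:75768778-75801534. DGAT1 and FABP5 were read from the rows ENSG00000185000 and ENSG00000164687. UMIs were counted per gene, so no exon or isoform is told apart.

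Promoters are shown for 4 members because hypoxia-inducible factors bind DNA at a short core, ACGTG or GCGTG, and because these members differed in how they followed hypoxia-response genes. Of the 9 genes, 5 matched an entry of the RefSeq promoter table on GRCh38.p14 (PLIN2, PLIN3, G0S2, LPIN1 and PNPLA2). Each sequence is the 250 bases before the annotated start, on the strand of the gene, with cores on either strand in capitals. Overlapping matches, as in CACGTG, count as 1 site. PLIN2 lies at chr9:19127493-19127742 (minus strand), G0S2 at chr1:209675162-209675411 (plus strand), PLIN3 at chr19:4867668-4867917 (minus strand) and PNPLA2 at chr11:818664-818913 (plus strand).
PLIN2: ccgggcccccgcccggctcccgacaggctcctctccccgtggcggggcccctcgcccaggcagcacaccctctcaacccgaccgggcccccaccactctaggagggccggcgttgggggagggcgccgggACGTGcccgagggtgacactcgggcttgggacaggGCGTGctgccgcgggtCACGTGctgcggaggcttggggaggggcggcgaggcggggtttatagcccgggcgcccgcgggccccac
G0S2: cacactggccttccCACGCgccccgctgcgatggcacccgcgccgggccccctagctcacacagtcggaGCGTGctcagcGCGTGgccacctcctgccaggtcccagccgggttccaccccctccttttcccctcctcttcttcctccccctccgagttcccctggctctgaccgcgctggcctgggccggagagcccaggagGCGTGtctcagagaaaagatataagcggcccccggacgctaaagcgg
PLIN3: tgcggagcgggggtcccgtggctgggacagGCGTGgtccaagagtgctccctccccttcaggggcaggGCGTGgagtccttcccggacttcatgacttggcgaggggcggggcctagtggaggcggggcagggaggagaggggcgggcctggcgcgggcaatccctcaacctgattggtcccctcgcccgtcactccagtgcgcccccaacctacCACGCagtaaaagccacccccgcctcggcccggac
PNPLA2: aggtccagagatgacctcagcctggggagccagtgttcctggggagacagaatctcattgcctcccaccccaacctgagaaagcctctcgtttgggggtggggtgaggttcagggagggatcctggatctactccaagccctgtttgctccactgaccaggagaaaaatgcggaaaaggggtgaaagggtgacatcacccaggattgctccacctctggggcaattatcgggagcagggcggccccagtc

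The PLIN2 window held 2 ACGTG sites and 1 GCGTG site, the G0S2 window 4 GCGTG sites, the PLIN3 window 3 GCGTG sites, and the PNPLA2 window 0 of either. LPIN1 had 3 entries, with 0, 0 and 1 GCGTG sites. Of 35116 windows of the same length, 18.5% held an ACGTG site and 2.61% held 2 or more. GCGTG was found in 32.2% of windows, 3 or more times in 2.89% and 4 or more times in 0.934%. The shares are over all windows and were not matched for base composition, and HILPDA had no entry to search. These matches are descriptions of the letters in the window, and binding was not measured here.

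Both sections passed the check of the cell line. The line's markers VIM and LGALS1 stood at 5639 and 1640 UMIs per 1000000 (CPM, over the summed spots) in Tumor-897 and at 5548 and 1477 CPM in Tumor-899, and ESR1, PGR and CDH1 at no more than 0.13 CPM. ERBB2 and EPCAM, low in this line, were between 16.0 and 29.4 CPM in the score zones compared below. The 2536 spots of Tumor-897 held 58661164 UMIs (median 23574 a spot). The 2846 spots of Tumor-899 held 39736292 UMIs, and the 2841 spots with at least 500 UMIs were used (median 15895). Both sections shared 1627 spot barcodes, which are codes of array positions. Each section held an area of shallow spots, found by Otsu's threshold on log10 UMIs averaged with adjacent spots, of 568 spots (median 4819.5 UMIs) in Tumor-897 and 857 spots (median 1470.0 UMIs) in Tumor-899. In sums over spots, fewer cells and less RNA per cell cannot be told apart. Adipocytes would carry droplets of their own. Their 10 markers summed to 12.8 CPM in Tumor-897 and 12.3 CPM in Tumor-899, LEP, RETN and CIDEA were at 0 in both, and ADIPOQ had 29 UMIs in each section. Host transcripts that do not align to human genes are not counted, so these low values cannot show that adipocytes were absent.

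Over whole sections, PLIN3 stood at 165 and 152 CPM, FABP5 at 144 and 145 CPM, G0S2 at 141 and 139 CPM, and PLIN2 at 122 and 120.4 CPM in Tumor-897 and Tumor-899. PNPLA2 stood at 50.9 and 57.2 CPM, LPIN1 at 55.8 and 51.8 CPM, DGAT1 at 27.5 and 28.7 CPM, HILPDA at 22.3 and 17.6 CPM, and DGAT2 at 6.60 and 8.10 CPM. CPM is not per length, so levels of different genes are not set against each other.

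The first comparison asked how the genes followed the expression of hypoxia-response genes. Neither oxygen nor the fluorescence of the fate-mapping system was used. Each spot had a hypoxia score, the mean standardized expression of 28 hypoxia-response genes, none of them a member, averaged with its adjacent spots. In each tumor the top quartile of the score (634 and 710 spots) was set against the bottom quartile (634 and 711 spots). PLIN2, HILPDA and G0S2 rose in high-score tissue and FABP5 fell, while PLIN3, PNPLA2, LPIN1, DGAT1 and DGAT2 did not pass the test. With edgeR's quasi-likelihood test and a Benjamini-Hochberg threshold of 0.05, 4 of 9 members were called, where 12.3% of the 14179 genes tested were called. For higher calls the count was 3 of 9 against a background of 7.06%, and for lower calls 1 of 9 against 5.25%. The members' median log2 fold change was 0.17, against 0.00 over all genes tested.

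**Figure D1:**
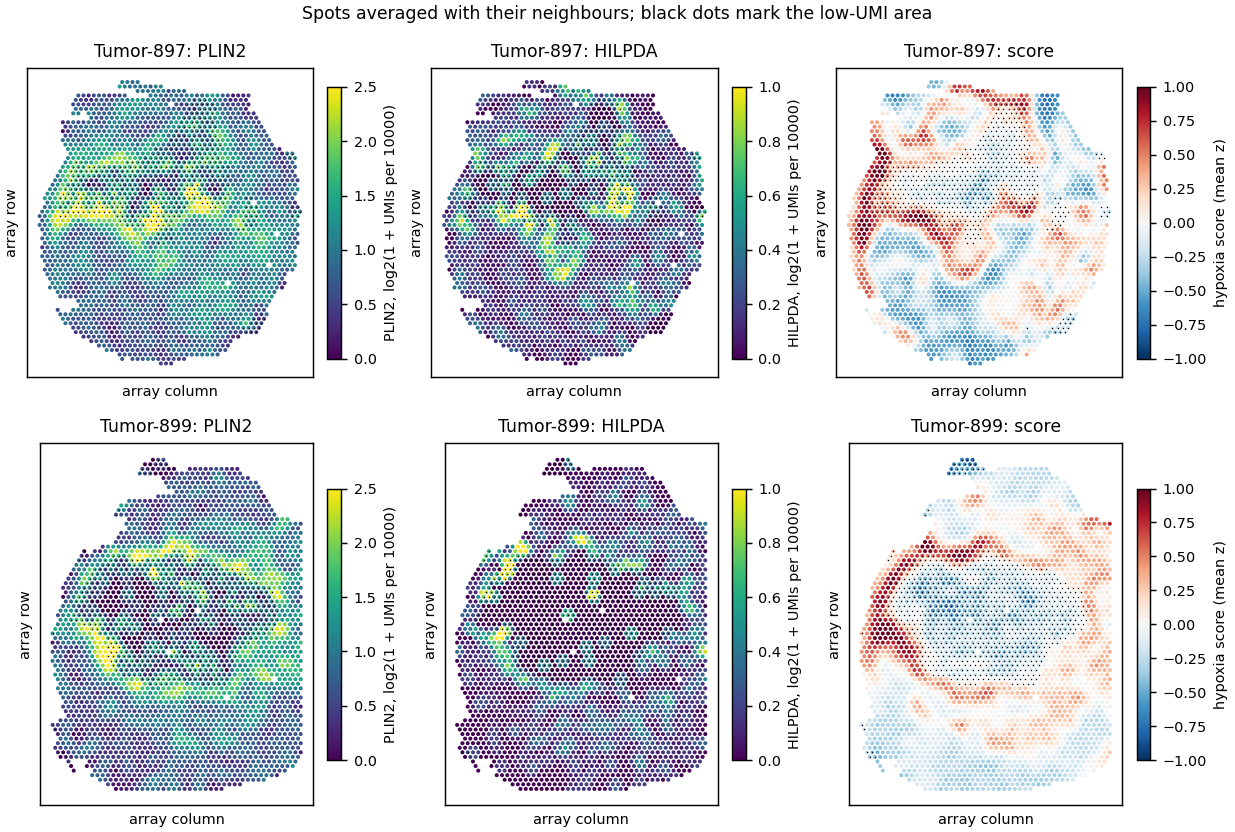
Maps of PLIN2 (left), HILPDA (middle) and the hypoxia score (right) over the spots of Tumor-897 (top) and Tumor-899 (bottom), at array row and column. Gene colour is log2 of 1 plus UMIs per 10000, averaged with adjacent spots, score colour is the mean z, and black dots mark the low-UMI area. The brightest spots of PLIN2 and HILPDA lie mostly along stretches of the high-score bands beside that area, though not along all of them. Spots with few UMIs often hold 0 UMIs of a gene and look dark, so levels inside the area are read from the sums in the text.

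The droplet coat gene PLIN2 had 205 and 201 CPM in the high-score zones of Tumor-897 and Tumor-899, against 68.1 and 68.8 CPM in the low-score zones. Both high-score values were well above both low-score values, and the fitted difference was 3.22-fold (log2 1.69 ± 0.08 SE, n = 2 tumors, edgeR adjusted p = 2.75e-06). Over the 4 quartiles, low to high, PLIN2 stood at 68.1, 98.96, 142 and 205 CPM in Tumor-897, and at 68.8, 67.0, 111 and 201 CPM in Tumor-899. The values of the lowest 2 quartiles overlapped between tumors, while each of the upper 2 lay above all quartiles under it. In the highest decile of the score PLIN2 reached 236 and 252 CPM.

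The other coat gene, PLIN3, did not pass the test. It had 171 and 143 CPM in the high-score zones, against 159 and 154 CPM in the low-score zones, and the log2 fold change was 0.12 ± 0.08 (edgeR adjusted p = 0.395). The per-tumor log2 values were 0.23 in Tumor-897 and 0.00 in Tumor-899. PLIN3 was called higher only when the highest decile was set against the lowest (log2 0.28, edgeR adjusted p = 0.0429).

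The lipase inhibitor HILPDA showed the steepest increase among the members. It had 46.3 and 30.9 CPM in the high-score zones of Tumor-897 and Tumor-899, against 9.96 and 6.65 CPM in the low-score zones. These values rest on 602 and 360 UMIs in the high-score zones, against 187 and 40 UMIs in the low-score zones, and the value of 6.65 CPM has an exact 95% Poisson interval of 4.75 to 9.05 CPM that covers counting error only. The fitted difference was 5.03-fold (log2 2.33 ± 0.12, edgeR adjusted p = 5.68e-06), with 2.32 in Tumor-897 and 2.29 in Tumor-899. Over the quartiles, low to high, the level was 9.96, 14.5, 24.0 and 46.3 CPM in Tumor-897 and 6.65, 12.6, 14.2 and 30.9 CPM in Tumor-899, so every step was upward in both. The lowest quartile did not overlap the next one between the tumors, whereas the middle quartiles overlapped (12.6 to 14.5 and 14.2 to 24.0 CPM). In the highest decile HILPDA reached 54.3 and 44.5 CPM.

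G0S2, the other inhibitor of the lipase, rose less. It had 173 and 156 CPM in the high-score zones, against 124 and 137 CPM in the low-score zones, which did not overlap. The log2 fold change was 0.45 ± 0.09 (edgeR adjusted p = 0.0125), with 0.60 in Tumor-897 and 0.29 in Tumor-899. The highest decile of the score stood above the other 9 in both tumors, at 207 and 224 CPM, and the decile just under it had 156 and 126 CPM. In Tumor-899 those other 9 deciles lay between 119 and 147 CPM. The call was lost without the tumor as a block (edgeR adjusted p = 0.0516). G0S2 overlaps the gene HSD11B1-AS1, which is also in the matrix, and how reads over both were assigned is not given in the sources used here.

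The lipase itself, PNPLA2, was nearly flat. It had 51.7 and 59.7 CPM in the high-score zones, against 50.03 and 52.7 CPM in the low-score zones, a log2 fold change of 0.22 ± 0.09 (edgeR adjusted p = 0.126). The values of the zones overlapped between tumors. A linear trend over the 4 quartiles called it higher (log2 0.22, edgeR adjusted p = 0.0107), and thinning every spot to 1753 UMIs turned its sign (log2 -0.09, adjusted p = 0.888).

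The synthesis genes did not pass the test. LPIN1 had 49.8 and 46.1 CPM in the high-score zones, against 62.6 and 49.7 CPM in the low-score zones (log2 -0.12 ± 0.09, edgeR adjusted p = 0.439). DGAT1 had 26.7 and 29.8 CPM in the high-score zones, against 25.5 and 29.1 CPM in the low-score zones (log2 0.17 ± 0.10, adjusted p = 0.319). DGAT2 had 5.92 and 8.15 CPM in the high-score zones, against 6.82 and 8.98 CPM in the low-score zones (log2 -0.06 ± 0.18, adjusted p = 0.861). For all 3 the values of the zones overlapped. DGAT2 rests on 77 and 95 UMIs in the high-score zones and 128 and 54 UMIs in the low-score zones, which gives it the widest error of the 9. DGAT1 overlaps HSF1 in the annotation.

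The fatty acid carrier FABP5 was lower where the score was high. It had 122 and 120 CPM in the high-score zones of Tumor-897 and Tumor-899, against 163 and 156 CPM in the low-score zones, with no overlap. The log2 fold change was -0.28 ± 0.07 (edgeR adjusted p = 0.0367), or 1.22-fold lower, and was -0.29 and -0.28 in the tumors. The call was lost without the low-UMI area (edgeR adjusted p = 0.0632), without the tumor block, with spots thinned to 1753 UMIs and in DESeq2 (adjusted p = 0.317), with the direction kept in each. FABP5 has near-identical processed copies in the genome, so its count is uncertain where reads could be split among them.

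**Figure D2:**
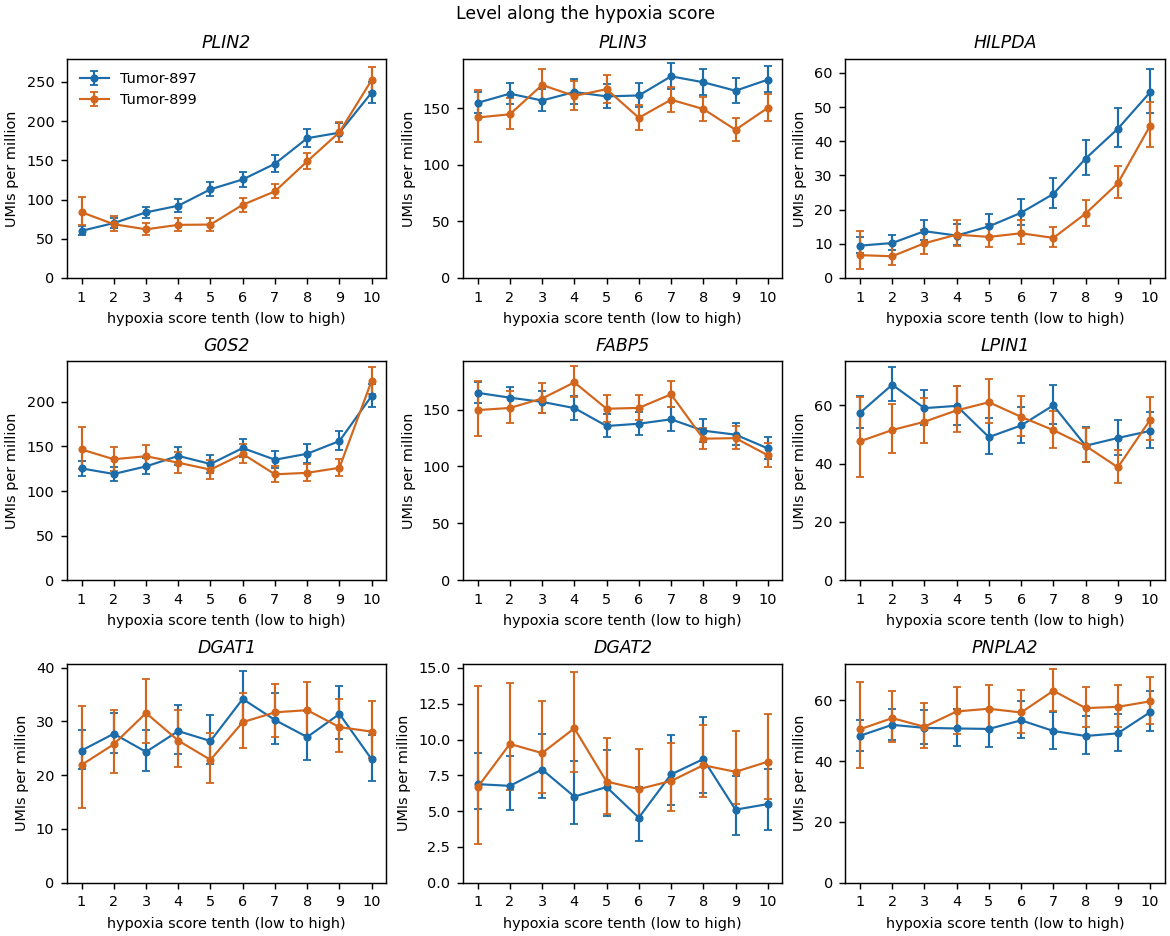
Level of each of the 9 genes in CPM (vertical axes from 0) over 10 deciles of the hypoxia score, low to high, in Tumor-897 (blue) and Tumor-899 (orange). Bars are exact 95% Poisson intervals of the summed UMIs and cover counting error only. PLIN2 and HILPDA climb over the upper deciles in both tumors, G0S2 is highest in the highest decile, FABP5 declines, and the other genes stay within narrow ranges.

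The zones differed in depth and in other cells. The low-UMI area held 19.2% of high-score and 8.36% of low-score spots in Tumor-897, but 10.0% of high-score and 55.6% of low-score spots in Tumor-899. Without that area PLIN2 (log2 1.725), HILPDA (2.29) and G0S2 (0.44) remained called. Macrophage and granulocyte markers, 13 genes, summed to 259 and 216 CPM in the high-score zones, against 193 and 199 CPM in the low-score zones. CD68, a lysosomal protein of macrophages that tumor cells also make, provided most of that sum and was called higher (log2 0.69 ± 0.08), whereas C1QB was called lower (log2 -1.17 ± 0.23). Of the 8 tested markers of that list 1 rose and 3 fell. The 12 fibroblast markers summed to 1119 and 801 CPM in the high-score zones, against 894 and 1957 CPM in the low-score zones. The 10 skeletal muscle markers summed to 15.4 and 24.9 CPM in the high-score zones, against 13.6 and 757 CPM in the low-score zones, and of 4 tested 0 rose and 3 fell, among them ACTA1 (log2 -5.32 ± 0.93). Without the spots richest in other-cell markers, PLIN2 (1.81), HILPDA (2.41), G0S2 (0.42) and FABP5 (-0.34) were each still called. Those were the 10% of spots in each tumor with the largest share of UMIs from all other-cell lists together. CD68 counts in that share, at 177 and 167 CPM over whole sections, so the spots left out need not be those richest in host cells.

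The second comparison asked how the genes changed with depth, counted in steps to the tissue border. The inner tertile (745 and 872 spots) was set against the outer tertile (919 and 997 spots), with no expression value used to draw the zones. PLIN2 and HILPDA rose in inner tissue, PLIN3 and G0S2 fell, and the other 5 members did not pass. Of 14588 genes tested, 6.99% were called, 2.9% as higher and 4.09% as lower, against 4 of 9 members with 2 in each direction. The members' median log2 fold change was -0.12, against 0.00 over all genes.

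PLIN2 had 167 and 184 CPM in the inner zones of Tumor-897 and Tumor-899, against 93.8 and 80.3 CPM in the outer zones. The inner values were above both outer values, and the fitted difference was 2.02-fold (log2 1.02 ± 0.08, edgeR adjusted p = 1.82e-11). At 1, 2, 3 to 4, 5 to 7 and 8 or more steps PLIN2 stood at 70.9, 92.0, 106, 106 and 149 CPM in Tumor-897, and at 65.8, 78.1, 81.8, 83.6 and 148 CPM in Tumor-899. The largest difference between adjacent bins in both sections was the one to 8 or more steps, but the bins are not of equal width. Mean depth was 5.96 and 6.0 steps in the bin of 5 to 7, against 14.1 and 15.7 steps in the last bin. The low-UMI area held 34.6% and 40.5% of the spots of the last bin, against 12.3% and 15.0% at 5 to 7 steps.

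PLIN3 fell inward. It had 150.0 and 132 CPM in the inner zones, against 181 and 165 CPM in the outer zones, with no overlap (log2 -0.28 ± 0.07, edgeR adjusted p = 0.0134). Over the same 5 bins it declined from the border inward, with 192, 192, 173, 162 and 153 CPM in Tumor-897 and 192, 178, 172, 150.2 and 143 CPM in Tumor-899. Its call was lost in DESeq2 (adjusted p = 0.544), with thinned spots, with each section split at its median depth, without the tumor block, and without the spots richest in other-cell markers (log2 -0.24, edgeR adjusted p = 0.0839).

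HILPDA had 30.2 and 22.8 CPM in the inner zones, against 17.8 and 13.1 CPM in the outer zones, with no overlap. The log2 fold change was 0.78 ± 0.12 (edgeR adjusted p = 1.17e-05), with 0.74 in Tumor-897 and 0.83 in Tumor-899. In Tumor-897 the increase was uneven, at 12.1, 22.7, 19.7, 17.5 and 26.9 CPM over the 5 bins from the border. The call was lost in DESeq2 (adjusted p = 0.0580), with thinned spots (0.243) and without the tumor block (0.207).

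G0S2, which rose with the score, fell with depth. It had 129 and 112 CPM in the inner zones, against 149.6 and 153 CPM in the outer zones, with no overlap (log2 -0.32 ± 0.08, edgeR adjusted p = 0.00651). Its highest bin in both tumors lay at 2 steps from the border, with 160.4 and 175 CPM. The call was lost in DESeq2 (adjusted p = 0.424), with thinned spots, with each section split at its median depth and without the tumor block.

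Of the others, FABP5 had 136 and 132 CPM in the inner zones, against 147 and 149.9 CPM in the outer zones (log2 -0.14 ± 0.07, edgeR adjusted p = 0.303). LPIN1 had 53.5 and 41.2 CPM in the inner zones, against 54.9 and 55.7 CPM in the outer zones (log2 -0.21 ± 0.09, adjusted p = 0.168), with -0.05 in Tumor-897 and -0.40 in Tumor-899. The log2 fold changes of DGAT1 (0.15 ± 0.11), DGAT2 (-0.12 ± 0.18) and PNPLA2 (-0.04 ± 0.08) were each less than 2 standard errors from 0. PNPLA2 was within 48.0 to 58.1 CPM in every depth tertile of both tumors.

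**Figure D3:**
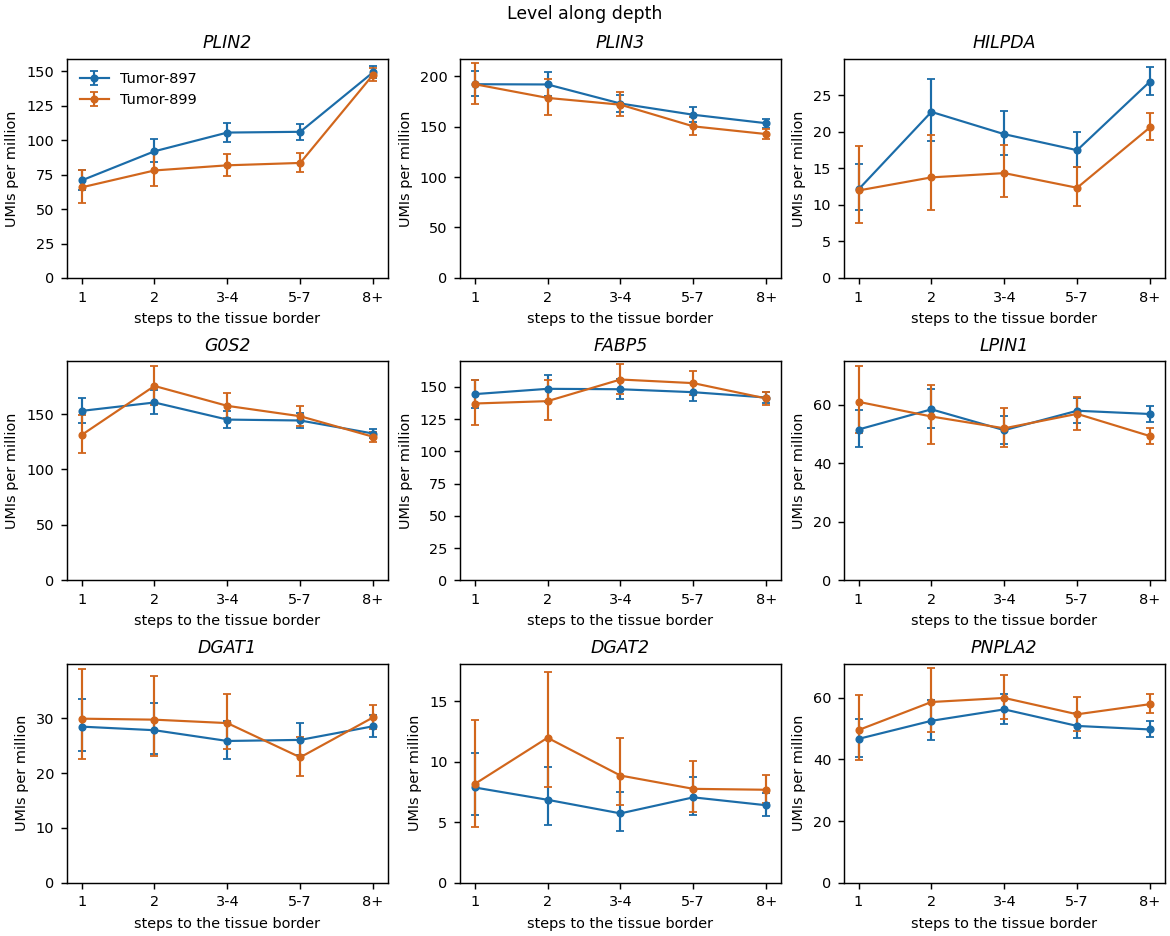
Level of each of the 9 genes in CPM (vertical axes from 0) by steps from the tissue border, border at left, in Tumor-897 (blue) and Tumor-899 (orange). Bars are exact 95% Poisson intervals of the summed UMIs and cover counting error only. PLIN2 rises inward to 149 and 148 CPM, and PLIN3 declines inward from 192 in both tumors.

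Depth moved together with the low-UMI area and with other cells. That area held 44.0% of inner and 7.83% of outer spots in Tumor-897, and 58.6% of inner and 11.1% of outer spots in Tumor-899. Without it the log2 fold changes were 0.97 for PLIN2, 0.76 for HILPDA, -0.27 for PLIN3 and -0.37 for G0S2, and all 4 remained called. Fibroblast markers summed to 538 and 389 CPM in the inner zones, against 1457 and 1976 CPM in the outer zones, led by COL1A1 and COL3A1. The 10 skeletal muscle markers summed to 11.9 and 24.5 CPM in the inner zones, against 15.5 and 434 CPM in the outer zones. The 6 red blood cell markers summed to 106 and 54.3 CPM in the inner zones, against 54.8 and 42.2 CPM in the outer zones, and the hemoglobin gene HBB was called higher (log2 0.70 ± 0.09). Adipocyte markers summed to 11.8 and 12.3 CPM in the inner zones, against 14.4 and 12.5 CPM in the outer zones. Of 4 tested, 0 rose and 2 fell inward, ADIPOQ and FABP4, and DESeq2 called 0. CFD, at 7.79 and 8.13 CPM over whole sections, had the most counts of that list. Of the line's own 9 markers 0 rose and 4 fell inward, among them LGALS1 (log2 -0.42 ± 0.08), and of 9 tested macrophage and granulocyte markers 0 rose and 6 fell. The mean hypoxia score was 0.0020 and -0.062 in the inner zones against 0.026 and 0.0092 in the outer zones.

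**Figure D4:**
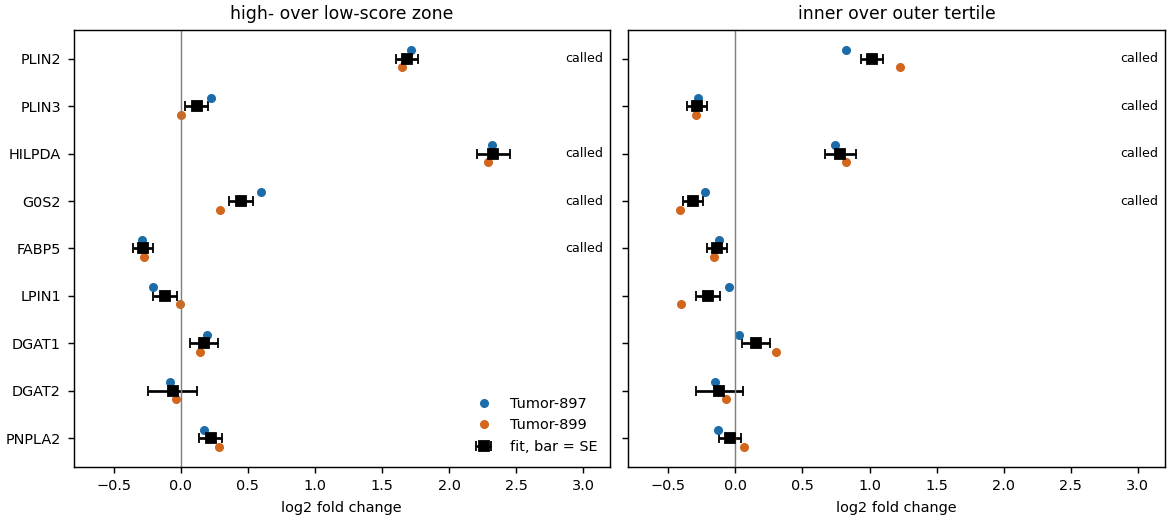
Log2 fold change of each of the 9 genes, high- over low-score zone (left) and inner over outer tertile (right). Black squares are the edgeR fit with its standard error, circles are the values of Tumor-897 (blue) and Tumor-899 (orange), and called marks an adjusted p under 0.05. PLIN2 and HILPDA are above 0 on both sides, and G0S2 is above 0 on the left and below 0 on the right.

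Score and depth were then crossed, with tertiles of each, to ask whether the difference with the score was the same in inner and outer tissue. PLIN2 had 287 and 225 CPM in high-score inner zones and 131 and 126 CPM in high-score outer zones. In low-score tissue it had 94.8 and 196 CPM in inner zones and 59.0 and 58.6 CPM in outer zones. The low-score outer zones were thus lowest in both tumors and the high-score inner zones highest. In a fit of all 8 sums the score term of PLIN2 was log2 1.19 ± 0.15 (edgeR adjusted p = 1.77e-04) and its depth term log2 1.01 ± 0.15 (adjusted p = 0.00173). The score term was 1.47 in Tumor-897 and 0.71 in Tumor-899, and the depth term 0.89 and 1.29. The low-score inner zone of Tumor-899, which enters both of its terms, lay wholly in the low-UMI area and held 458437 UMIs. Terms with that area left out are given below.

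HILPDA had 65.4 and 30.3 CPM in high-score inner zones and 30.9 and 23.4 CPM in high-score outer zones. In low-score tissue it had 12.7 and 17.5 CPM in inner zones and 9.26 and 8.17 CPM in outer zones. Its score term was log2 1.95 ± 0.17 (edgeR adjusted p = 1.10e-05), and its depth term, log2 0.58 ± 0.18, did not pass (adjusted p = 0.113). The score term was 2.12 in Tumor-897 and 1.19 in Tumor-899, and the depth term 0.74 and 0.72. The value of 17.5 CPM, which enters both terms of Tumor-899, comes from the zone that lay wholly in the low-UMI area. It rests on few UMIs, counted below. The depth term of HILPDA was called in 3 alternatives: with spots of at least 2000 UMIs, with the score split at its median, and with no filter on low counts (lowest edgeR adjusted p = 0.00647). PLIN3 had a depth term of log2 -0.39 ± 0.09 (adjusted p = 0.0429) and no called score term (log2 0.22 ± 0.09, adjusted p = 0.182). The depth call of PLIN3 was lost in 6 alternatives, with adjusted p between 0.0552 and 0.383: library size alone, DESeq2, thinned spots, no tumor block, without the spots richest in other-cell markers, and the median splits without the low-UMI area. The score term called 2 of 9 members, both higher, where 6.35% of 13080 genes were called, 4.08% as higher and 2.27% as lower. The depth term called 2 of 9, 1 in each direction, where 1.93% were called, 0.55% as higher and 1.38% as lower.

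G0S2 had 169 and 114 CPM in high-score inner zones and 171 and 197 CPM in high-score outer zones. In low-score tissue it had 104 and 164 CPM in inner zones and 134 and 133 CPM in outer zones. Its terms, log2 0.44 ± 0.14 for the score and -0.27 ± 0.14 for depth, did not pass (edgeR adjusted p = 0.0683 and 0.354). The score term was called in 4 alternatives: the 3 that called the depth term of HILPDA, and the median splits of score and depth without the low-UMI area (lowest edgeR adjusted p = 0.000486). Those splits, chosen after seeing the data, also called the score terms of DGAT1 (log2 0.28, edgeR adjusted p = 0.0106), PNPLA2 (0.18, 0.0332) and FABP5 (-0.16, 0.0143). None of these terms passed in the main fit (edgeR adjusted p = 0.804, 0.582 and 0.119). For FABP5 the term was also called with spots of at least 2000 UMIs and by library size alone.

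Within inner tissue alone the score difference called PLIN2 (log2 1.16 ± 0.23, edgeR adjusted p = 0.0330) and HILPDA (2.16 ± 0.26, adjusted p = 0.00144), 2 of 9 members. Both differences were larger in Tumor-897, with log2 1.72 in Tumor-897 and 0.23 in Tumor-899 for PLIN2, and 2.45 and 0.82 for HILPDA. The low-score inner zone of Tumor-899 lay wholly in the low-UMI area. With median splits and that area left out, the inner difference of PLIN2 was 1.33 in Tumor-897 and 1.61 in Tumor-899. That of HILPDA was 1.99 and 0.50, so only HILPDA kept the order of the tumors. Of all genes 0.482% were called there, 0.39% as higher and 0.0917% as lower. Within outer tissue it called PLIN2 (1.21 ± 0.21, adjusted p = 0.00240) and HILPDA (1.74 ± 0.22, adjusted p = 2.07e-04), where 3.92% of genes were called, 2.94% as higher and 0.986% as lower. The outer values were 1.23 in Tumor-897 and 1.19 in Tumor-899 for PLIN2, and 1.78 and 1.56 for HILPDA. DESeq2 did not call PLIN2 in inner tissue (adjusted p = 0.121).

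No member had a called interaction of score and depth in edgeR or DESeq2, and 0 of 9 had an unadjusted p under 0.05. Of all genes 0.00765% were called by edgeR, a single gene that was lower, while 397 had an unadjusted p under 0.05 and DESeq2 called 2. For PLIN2 the interaction was log2 -0.05 ± 0.30, made up of 0.49 in Tumor-897 and -0.96 in Tumor-899, so the tumors went opposite ways. The low-score inner zone of Tumor-899 lay wholly in the low-UMI area and held only 458437 UMIs, among them 90 of PLIN2 and 8 of HILPDA. With score and depth each split at the median and the low-UMI area left out, a setting chosen after seeing the data, the PLIN2 score term was 1.24 ± 0.06 and its depth term 0.43 ± 0.06 (edgeR adjusted p = 3.47e-04). The score term was 1.17 in Tumor-897 and 1.39 in Tumor-899, and the depth term 0.52 and 0.25. For both terms the order of the tumors was the reverse of that with tertiles. The depth term was smaller in that setting, which also uses wider zones, and its call held. The interaction was then 0.30 ± 0.11 (adjusted p = 1.0), with 0.33 and 0.44 in the tumors.

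Levels were also described by steps from the low-UMI area, with no test. PLIN2 stood at 262 CPM inside the area, and at 211, 119 and 90.4 CPM at 1 to 2, 3 to 5 and 6 or more steps in Tumor-897. In Tumor-899 it stood at 241 CPM inside and at 294, 127 and 85.2 CPM outward. The 2 bins in or next to the area were thus above the others in both. HILPDA stood at 47.1, 41.3, 21.9 and 15.7 CPM in Tumor-897 and at 28.5, 40.2, 17.3 and 13.6 CPM in Tumor-899, in the same order of bins. G0S2 stood at 169, 159, 142 and 133 CPM in Tumor-897 and at 155, 193, 138 and 130.1 CPM in Tumor-899.

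FABP5 and PLIN3 ran the other way, with FABP5 lowest next to the area at 124 and 104 CPM and PLIN3 lowest inside it at 141 and 120.4 CPM. DGAT2 stood at 2.53 and 3.31 CPM inside the area, on 8 and 5 UMIs, with exact 95% Poisson intervals of 1.09 to 4.98 and 1.07 to 7.72 CPM. Outside it DGAT2 ranged between 6.48 and 8.80 CPM. PNPLA2 stood at 55.3 and 64.8 CPM inside and between 50.2 and 57.2 CPM outside. The mean hypoxia score was highest at 1 to 2 steps from the area, at 0.30 and 0.40, and was 0.047 and -0.18 inside it. A spot with few UMIs and none of the score genes scores low. The lower score inside the area is therefore not read as less hypoxia.

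**Figure D5:**
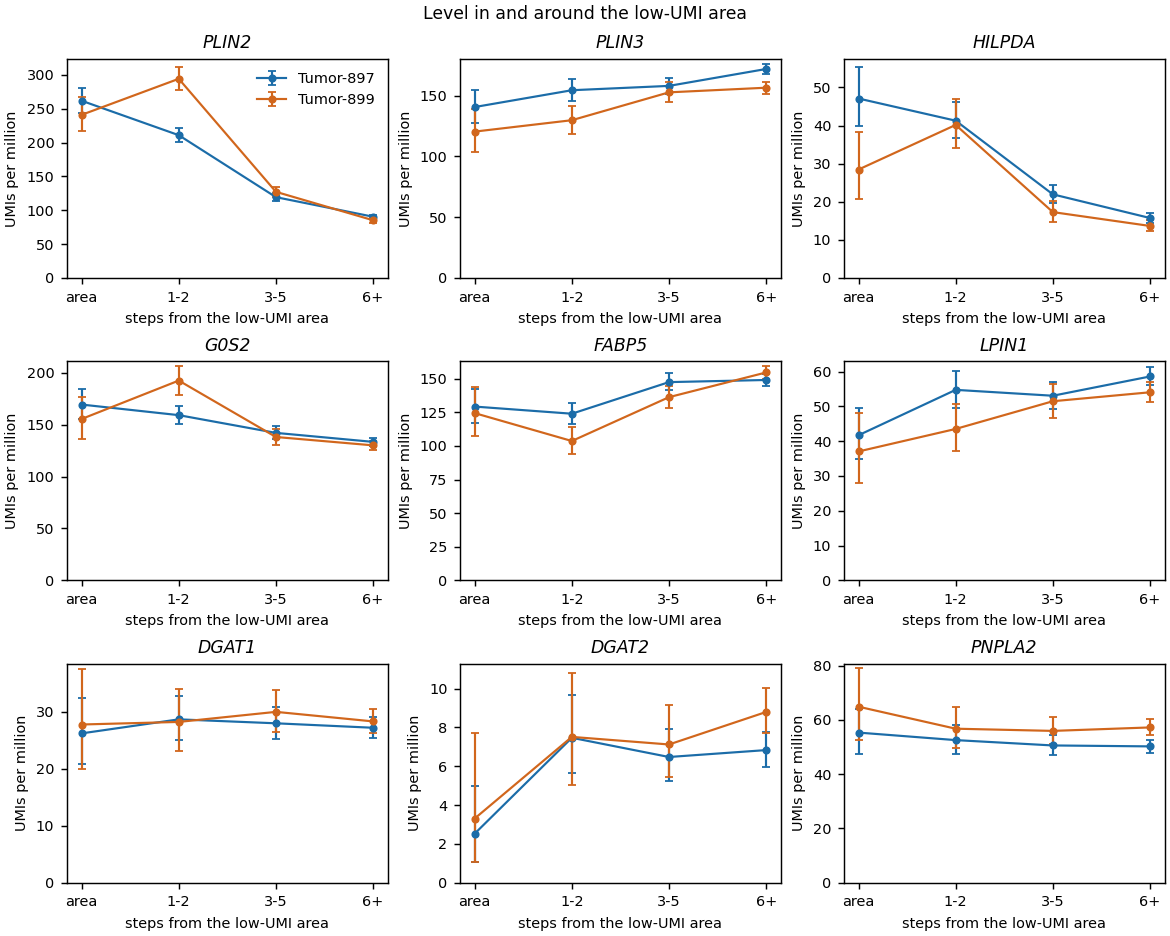
Level of each of the 9 genes in CPM (vertical axes from 0) inside the low-UMI area and at 1 to 2, 3 to 5 and 6 or more steps from it, in Tumor-897 (blue) and Tumor-899 (orange). Bars are exact 95% Poisson intervals of the summed UMIs and cover counting error only. PLIN2, HILPDA and G0S2 are highest in or next to the area, and DGAT2 is lowest inside it.

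The spatial patterning of 6 members could be described with Moran's I, which is near 0 for a gene scattered at random and rises when adjacent spots are alike. PLIN2 had 0.258 in Tumor-897 and 0.196 in Tumor-899, ranks 105 and 398 of 4692 genes with at least 0.5 UMI per spot in both. G0S2 had 0.141 and 0.143 (ranks 371 and 1025), and PLIN3 0.0817 and 0.193 (ranks 1162 and 417). FABP5 had 0.0781 and 0.192 (ranks 1257 and 426), and LPIN1 0.105 and 0.125 (ranks 720 and 1369). In Tumor-899 PLIN3 and FABP5 thus ranked close to PLIN2. PNPLA2 was the least patterned, at 0.0066 and 0.0483 (ranks 4544 and 4072). HILPDA, DGAT1 and DGAT2 were under 0.5 UMI per spot in at least 1 tumor and were not ranked. Moran's I depends on depth, so the 2 sections are not compared by it.

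Across spots, correlations were computed on levels averaged with adjacent spots, over 2536 and 2841 spots that share their section, library and depth. PLIN2 and HILPDA had a Pearson r of 0.46 and 0.38, and with the hypoxia score PLIN2 had 0.60 and 0.57 and HILPDA 0.52 and 0.51. PLIN2 and FABP5 had -0.29 and -0.11. FABP5 with the score had -0.28 in Tumor-897 and 0.10 in Tumor-899, so this measure differed in sign between the tumors. PLIN3, FABP5 and LPIN1 went together (0.25 to 0.54 over their pairs and tumors), and all 3 also went with log10 UMIs (0.53 to 0.74), whereas PLIN2 had -0.33 and 0.07 with it.

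The genes most like a member were the 5 with the highest r, by the lower of the tumors. For PLIN2 they were the metallothionein MT1X (0.63 and 0.61), NDRG1 and BNIP3, both score genes, the translation factor EEF1A1 and the ribosomal protein RPS18. For G0S2 they were SEC61G (0.32 and 0.35), SRGN, RPL36A, BZW1 and RBPJ, and for PLIN3 they included VCP (0.52 and 0.65), MYL6, NDUFS5 and CD59. For FABP5 they were SNRPG (0.54 and 0.67), NDUFB1, SRSF1, FEN1 and HNRNPM, and for LPIN1 SNRPG (0.51 and 0.52), SLIRP, SNRPE, HNRNPM and NDUFB1. For PNPLA2 the highest r was only 0.26 and 0.32, with PSMG3, followed by COX7A2, SRSF6, SLC20A1 and ATP5MC1.

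Other genes of lipid handling were counted in lists beside the members. Over all genes tested, 7.06% were called higher and 5.25% lower with the score, and 2.9% and 4.09% with depth. An unadjusted p under 0.05 in edgeR was found for 4034 of 14179 genes with the score and 2896 of 14588 with depth. The counts of the lists below are to be read beside these shares. Among 12 tested proteins of droplets outside the members, 1 was called higher with the score and 0 lower. This was TMEM159, which helps form droplets, at 18.2 and 22.9 CPM in high-score zones against 12.0 and 13.6 CPM in low-score zones (log2 0.78 ± 0.13, edgeR adjusted p = 0.00541), a call lost in DESeq2 (adjusted p = 0.101). AUP1, the gene with the most counts of that list, was at log2 0.00 ± 0.07. With depth, 0 of the 12 were called by edgeR or DESeq2, and 3 had an unadjusted p under 0.05.

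Of 13 uptake genes, 1 was higher and 1 lower with the score. VLDLR, a receptor for triglyceride-rich lipoproteins, had 23.1 and 20.6 CPM in high-score zones against 6.77 and 5.65 CPM in low-score zones (log2 1.92 ± 0.15, edgeR adjusted p = 5.00e-05). The fatty acid transporter SLC27A4 had 18.4 and 22.0 CPM in high-score zones against 31.6 and 41.9 CPM in low-score zones (log2 -0.74 ± 0.11, adjusted p = 0.00296). With depth 0 rose and 3 fell: FABP4 (-1.03 ± 0.31), LRP1 (-0.99 ± 0.10) and SLC27A3 (-0.84 ± 0.25). DESeq2 called LRP1 of these 3. FABP4 is also on the adipocyte list, and LRP1 is also made by fibroblasts, whose markers fell inward as given above. The part of these cells in the 3 values was not tested. CAV1, the gene with the most counts of the list, was at -0.05 ± 0.08 with the score and -0.06 ± 0.08 with depth.

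Of 17 other genes of triglyceride and steryl ester synthesis, 0 rose and 2 fell with the score, the acyltransferase GPAT2 (-0.45 ± 0.11) and SOAT1 (-0.35 ± 0.09), which esterifies cholesterol. With depth 0 rose and 2 fell, GPAT2 (-0.47 ± 0.09) and GPAT4 (-0.32 ± 0.09). DESeq2 called 0 of the 17 in either comparison, and 3 with the score and 4 with depth had an unadjusted p under 0.05 in edgeR. Of 20 genes of fatty acid synthesis and desaturation, 0 rose and 3 fell with the score. Fatty acid synthase FASN had 106 and 121 CPM in high-score zones against 158 and 172 CPM in low-score zones (log2 -0.43 ± 0.08, edgeR adjusted p = 0.00680). ELOVL6 (-0.39 ± 0.10) and ACLY (-0.33 ± 0.08) were the others, and the desaturase SCD did not pass (0.12 ± 0.09). With depth 0 rose and 2 fell, ELOVL1 (-0.37 ± 0.08) and ACLY (-0.24 ± 0.08). DESeq2 called FASN with the score and 0 of the 20 with depth, where 6 had an unadjusted p under 0.05 in edgeR.

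Of 15 genes of lipolysis and lipophagy, 1 rose and 0 fell with the score. The autophagy receptor SQSTM1 had 362 and 428 CPM in high-score zones against 291 and 283 CPM in low-score zones (log2 0.57 ± 0.09, edgeR adjusted p = 0.00358). With depth SQSTM1 rose (0.30 ± 0.08), and LAMP2 (-0.38 ± 0.08) and PNPLA6 (-0.27 ± 0.09) fell. DESeq2 called SQSTM1 with the score and 0 of the 15 with depth, where 3 had an unadjusted p under 0.05 in edgeR. Among 24 genes of fatty acid oxidation 0 were called in either comparison by edgeR or DESeq2, and 1 with the score and 3 with depth had an unadjusted p under 0.05. Their median log2 fold change was -0.03 with the score and -0.02 with depth. ACADVL, the gene with the most counts among them, was at 0.12 ± 0.08 with the score and -0.08 ± 0.07 with depth. A further list held targets of PPAR nuclear receptors outside these lists, together with receptor genes such as PPARD, which encodes a PPAR itself. With the score PPARD (0.73 ± 0.10) and TXNIP (0.48 ± 0.09) rose and UCP2 (-0.51 ± 0.13) fell, out of 8 tested. With depth PDK4 (0.85 ± 0.26) and TXNIP (0.30 ± 0.08) rose and ANGPTL4, itself a score gene, fell (-0.27 ± 0.08), out of 9. DESeq2 called PPARD and TXNIP with the score and 0 of the 9 with depth, where 3 had an unadjusted p under 0.05 in edgeR.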

How the data were processed

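The deposited files hold UMI counts per gene and spot over tissue. Per the file headers the authors made these counts with Space Ranger 1.3.0. The submitters' processing notes name hg38 as the build. How reads over overlapping genes were assigned is not given in the sources used here. The section images were not used. Spots are not replicates, so counts were summed per tumor and zone. The hypoxia score of a spot is the mean z of log2(1 + UMIs per 10000) over 28 genes, averaged with adjacent spots, so a spot with few UMIs and none of these genes scores low. Depth is the number of steps to the tissue border, where gaps of at least 5 array positions also count as border. Sums were tested with edgeR 4.0.16 (filterByExpr, TMM, glmQLFit and glmQLFTest, with tumor as a block) and adjusted over all genes by Benjamini-Hochberg at 0.05. Score genes were left out of the tests that use the score. Printed CPM values are per zone total, and fitted folds also carry the TMM scaling. With 2 tumors the residual degrees of freedom were 1, 1 and 3 for score, depth and the crossed fit, so the tests lean on a spread shared over genes (prior degrees of freedom 8.81, 33.6 and 13.4). Alternatives, DESeq2 1.42.0 among them, are given in the closing section.

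The members and lists were chosen with earlier results of these data known. Named genes are the 9 members, up to 3 called genes of each list with the largest change in the same direction in both tumors, the most abundant gene of each list, the 2 most abundant of each marker list, markers at 0, and the 5 genes most correlated with a member. One gene that this rule names is not reported here. Counts with 200 genes changed by known amounts were simulated from these libraries. Of changes of log2 1, 82% were recovered for the score among 14207 genes, 76% for depth among 14588 and 39% for the interaction among 13108. Of changes of log2 0.5, 47%, 41% and 2% were recovered in the same order. False calls numbered 5, 1 and 1. The simulation gave each gene the spread shared by genes of its level and none of its own, so recovery in the data may be lower. Totals per section were 58661164 and 39736292 UMIs, and intervals cover counting error only.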

Additional observations from a re-analysis of the deposited data

How the results depend on the processing

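PLIN2 and HILPDA with the score kept their direction and call in all 16 alternatives with a test (log2 1.54 to 1.97 and 1.91 to 2.70 over 18), and PLIN2 with depth in all 12 (0.71 to 1.23 over 14). Leaving out a tumor leaves no residual degrees of freedom and gives a value with no test. Depth limits HILPDA and DGAT2 most, and the crossed fit without the low-UMI area could not be made because the low-score inner zone of Tumor-899 lies in it. The zones compared come from the same tumors, so each fit is paired, with the tumor as a block, and the values without the block are given below. With the score and no scaling beyond library size, the median gene was at -0.11 and 692 genes were called higher and 1954 lower, so 26.2% of calls were higher, against 57.3% with TMM. The causes of the changes below were not tested. Genes called with the score (1746) became 468 with spots thinned to 1753 UMIs, 2654 without other-cell-rich spots, 2935 with the score not smoothed, 4077 as a trend, 2646 by library size alone, 416 in DESeq2 and 580 without the tumor block, where 2 members were called. Genes called with depth (1019) became 302 thinned, 607 without the low-UMI area, 421 without other-cell-rich spots, 1544 as a trend, 1685 with the frame edge as border, 405 split at the median depth, 97 in DESeq2 and 34 without the block, and members called became 1 thinned, 2 at the median split, 1 in DESeq2 and 1 without the block. Genes with an interaction became 11 at 2000 UMIs or more a spot, 7 thinned, 2 at the median splits without the low-UMI area (chosen after seeing the data), 2 in DESeq2, 47 without a filter and 0 without the block.

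Values that changed sign with the score were as follows. Thinned spots gave LPIN1 0.16, PNPLA2 -0.089 and CFD -0.086, and deciles gave LPIN1 0.11, DGAT2 0.031, CAV1 0.010 and CFD -0.36. AUP1 was -0.022 without the low-UMI area, -0.0055 with the score not smoothed, -0.0021 with DESeq2 size factors, -0.11 by library size alone and -0.0022 in DESeq2. FABP4 was -0.28 with the score not smoothed, -0.12 with a score of even-placed genes, -0.026 by library size alone, -0.0079 in DESeq2 and -0.011 without the block. With depth AGPAT1 was 0.11 and CFD -0.58 thinned, CFD -0.041 at the median split and SCD 0.013 with the frame edge as border. The interaction was 0.54 for PLIN2 and 0.028 for DGAT1 at 2000 UMIs or more, 0.30 and 0.055 at the median splits, and -0.42 for HILPDA, 0.29 for FABP5 and -0.40 for LPIN1 thinned. The score term was -0.068 for PNPLA2 thinned, for DGAT2 -0.034 without other-cell-rich spots, -0.094 at the median splits and -0.066 by library size alone, and -0.026 for DGAT1 by library size alone. The depth term was -0.0024 for DGAT1 at 2000 UMIs or more, 0.067 for LPIN1 thinned and 0.026 for DGAT2 without other-cell-rich spots.

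With 1 tumor left out the score values ran -0.0044 to 0.23 for PLIN3, -0.0069 to 0.0084 for AUP1, -0.0091 to 0.23 for ACADVL, -0.32 to 0.28 for FABP4, -0.11 to 0.0041 for CAV1 and -0.031 to 0.27 for SCD. Depth values ran -0.13 to 0.064 for PNPLA2, -0.15 to 0.029 for CAV1, -0.0022 to 0.12 for CFD and -0.13 to 0.43 for CD68. The interaction ran -0.95 to 0.49 for PLIN2, -0.28 to 0.32 for PLIN3, -0.72 to 0.67 for HILPDA, -1.14 to 0.39 for G0S2, -0.34 to 0.0069 for FABP5 and -0.36 to 0.63 for LPIN1. The score term ran -0.0033 to 0.092 for PNPLA2, -0.041 to 0.088 for DGAT1 and -0.012 to 0.092 for DGAT2, and the depth term -0.21 to 0.16 for PNPLA2, -0.34 to 0.079 for LPIN1 and -0.15 to 0.32 for DGAT1.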
